A study of Homo sapiens with 16 samples.

Results

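The entries described here stand in the miRNA table under the name of a precursor hairpin (hsa-mir-) and not of a mature strand (hsa-miR-), and their values count short reads. Members were the hairpin-named entries above 0 in at least 4 of the 16 libraries, without hsa-mir-21, hsa-mir-221, hsa-mir-222, hsa-mir-191, hsa-mir-425 and the names that contain mir-7641, mir-663, mir-3648, mir-3687, mir-1291, mir-3653, mir-664 or mir-1248. This gave 129 members of the 407 hairpin-named entries, in a table of 915 entries that also holds 497 mature names and 11 let-7 hairpin names. The members were thus chosen by their detection in these libraries, which is given as a description only. At the threshold, 27 members were above 0 in exactly 4 libraries, with 4 to 42 reads in all and a median of 7. Just below it, 39 hairpin-named entries were above 0 in 3 libraries, with 3 to 34 reads and a median of 5. In at least 8 libraries 58 members were above 0, in at least 12 libraries 19 were, and in all 16 libraries 2 were, mir-181b-1 and mir-100.

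Small RNA came from extracellular vesicles (EVs) and donor cells of PC3, a human prostate cancer cell line, and MDA-MB-231, a human breast cancer cell line. Both lines were grown with 5% FBS according to the sample labels, while the study's methods give another FBS share for MDA-MB-231, so that culture medium and line cannot be told apart. Cells were starved in serum-free medium before conditioned medium was collected. EVs of each line were isolated by next-gen ATPS (an aqueous two-phase system of PEG and dextran, with the dextran then digested by dextranase), by ultracentrifugation (UC) or by the Qiagen exoRNeasy kit, which binds vesicles to a membrane. That the libraries with VC in their titles are UC was inferred, as the series names no further method. With the donor cells this made 8 groups of 2 libraries: PC3 EVs by ATPS, UC and exoRNeasy, PC3 cells, and the same 4 groups of MDA-MB-231. RNA of ATPS EVs, UC EVs and cells was extracted with TRIzol, and that of exoRNeasy EVs with the kit, so isolation and extraction cannot be told apart in comparisons with exoRNeasy. Whether the 2 libraries of each group stem from independent cultures is not stated.

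A miRNA gene is transcribed as a long primary transcript that folds into a hairpin. Drosha releases the hairpin in the nucleus, Dicer removes its loop in the cytoplasm, and 1 strand of the remaining duplex is loaded into an Argonaute protein as the mature miRNA. Bases 2 to 8 of the mature strand, the seed, pair with target mRNAs, so that mature miRNAs with the same seed share many targets. EVs carry mature miRNAs and fragments of longer RNAs out of the cell. The reads kept here were 18 to 35 bases long and thus shorter than a hairpin, so a value under a hairpin name counts short reads that the annotation placed on that hairpin. The sources used here do not say how the annotation divided reads between a hairpin name and its mature names.

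The hairpins that carry the main differences are shown first, from RefSeq on GRCh38.p14, 5′ to 3′, with the annotated mature strands in capitals. mir-181b-1 (chr1:198858873-198858982, minus strand) and mir-181a-1 (chr1:198859044-198859153, minus strand) are neighbours in an intron of the lncRNA gene MIR181A1HG, and mir-181a-2 (chr9:124692442-124692551, plus strand) lies in an intron of MIR181A2HG. mir-30a (chr6:71403551-71403621, minus strand) lies in an intron of LINC00472, and mir-182 (chr7:129770383-129770492, minus strand) in an intron of a lncRNA gene. mir-27a (chr19:13836440-13836517, minus strand) lies in an exon of MIR23AHG, and mir-561 (chr2:188297492-188297588, plus strand) in an intron of GULP1. mir-7-2 (chr15:88611825-88611934, plus strand) lies in no protein-coding or lncRNA gene of that strand, and mir-7-3 (chr19:4770670-4770779, plus strand) in an intron of MIR7-3HG.
mir-181b-1: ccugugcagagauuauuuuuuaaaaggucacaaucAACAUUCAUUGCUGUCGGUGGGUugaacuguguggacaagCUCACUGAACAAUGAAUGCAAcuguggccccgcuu
mir-181a-1: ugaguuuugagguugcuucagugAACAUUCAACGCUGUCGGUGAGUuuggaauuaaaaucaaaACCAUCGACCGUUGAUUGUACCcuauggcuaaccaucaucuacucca
mir-181a-2: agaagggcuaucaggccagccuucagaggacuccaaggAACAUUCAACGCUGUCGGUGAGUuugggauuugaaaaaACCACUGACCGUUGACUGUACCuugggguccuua
mir-30a: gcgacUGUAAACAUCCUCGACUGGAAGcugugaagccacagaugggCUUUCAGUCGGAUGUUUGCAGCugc
mir-182: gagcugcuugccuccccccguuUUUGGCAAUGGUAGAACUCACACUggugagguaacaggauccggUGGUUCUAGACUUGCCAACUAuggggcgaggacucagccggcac
mir-27a: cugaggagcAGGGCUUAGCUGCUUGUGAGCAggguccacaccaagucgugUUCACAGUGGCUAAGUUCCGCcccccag
mir-561: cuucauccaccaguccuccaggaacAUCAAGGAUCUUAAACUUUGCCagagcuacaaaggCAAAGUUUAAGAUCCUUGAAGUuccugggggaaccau
mir-7-2: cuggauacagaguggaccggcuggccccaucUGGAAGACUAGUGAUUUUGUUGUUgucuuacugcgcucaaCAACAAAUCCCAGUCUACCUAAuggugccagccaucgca
mir-7-3: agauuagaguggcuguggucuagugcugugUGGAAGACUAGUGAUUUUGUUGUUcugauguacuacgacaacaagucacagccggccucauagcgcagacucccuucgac

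The mature strands of these hairpins are shown with the seed in capitals, because the results below set each hairpin beside its mature strand. miR-181b-5p and miR-181a-5p share 1 seed, and miR-30a-5p shares its seed with miR-30c-5p and miR-30e-5p of other members. The strands of mir-27a have different seeds, and only that of miR-27a-3p is shared with miR-27b-3p.
miR-181b-5p: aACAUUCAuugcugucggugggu
miR-181a-5p: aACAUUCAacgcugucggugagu
miR-30a-5p: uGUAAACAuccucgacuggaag
miR-30c-5p: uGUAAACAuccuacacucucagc
miR-30e-5p: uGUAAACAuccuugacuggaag
miR-182-5p: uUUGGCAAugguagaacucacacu
miR-183-5p: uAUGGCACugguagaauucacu
miR-27a-5p: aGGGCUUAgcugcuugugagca
miR-27a-3p: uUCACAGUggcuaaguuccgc
miR-27b-3p: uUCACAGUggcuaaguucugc
miR-561-5p: aUCAAGGAucuuaaacuuugcc
miR-7-5p: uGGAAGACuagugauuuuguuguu

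RefSeq held the hairpin of 107 of the 129 members. Their median length was 84 bases (57 to 149), against 80 bases over all 1560 RefSeq hairpins, and their median GC content was 50.5%, against 52.1%. By the annotation, 58 of these 107 members lay inside a protein-coding gene on the same strand and 36 inside a lncRNA gene, and 14 lay outside both. Another annotated small RNA overlapped 2 of the 107, mir-3651 (SNORA84) and mir-6516 (SCARNA16). Members that are copies of 1 hairpin can share reads: mir-181a-1 and mir-181a-2 share a stretch of 28 bases, had 261 and 259 reads over all libraries and had identical values in 10 of 16. mir-7-2 and mir-7-3 share 24 bases, with 186 and 174 reads. The 4 copies of mir-1244 share 85 bases and had identical values in all 16 libraries, as did both copies of mir-4444 and the 4 members mir-320b-1, mir-320b-2, mir-320c-1 and mir-320c-2. By name, 37 members are copies of a hairpin. Those with identical values are not separate observations, while others differed, such as mir-181b-1 and mir-181b-2 with 1560 and 208 reads and identical values in 0 libraries.

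The tables give values named TPM, which here are reads of an entry per 1e+06 miRNA reads of the library, with no length term. Library depth ran from 1982 to 97408 miRNA reads in 15 libraries. The second MDA-MB-231 cell library held 153 miRNA reads, of which 16 belonged to 9 members, so that 1 read there is worth 6536 TPM. Counts are therefore also given without this library, which enters all comparisons because the 8 groups share one estimate of the spread. Over a group, 3 reads correspond to 67.5 TPM in PC3 EVs, 41.8 TPM in MDA-MB-231 EVs, 22.8 TPM in PC3 cells and 67.4 TPM in MDA-MB-231 cells. By method they correspond to 130 TPM with ATPS, 37.2 TPM with UC and 239 TPM with exoRNeasy, and these limits and all intervals cover counting error only. Of the marker miRNAs listed for cell types, 3 of 7 epithelial ones were in the table (0 to 399 TPM), with 1 of 7 for blood cells (miR-486-5p, 0 to 1009 TPM) and none for liver or muscle.

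Together the members held a small share of the miRNA reads. The share was 3.21 ± 0.729% in PC3 EVs (SD, n = 6, 2.05 to 4.07%) and 5.48 ± 1.23% in MDA-MB-231 EVs (SD, n = 6, 3.71 to 7.06%), and these ranges overlapped. It was 3.74% and 4.18% in PC3 cells and 4.85% in the deep MDA-MB-231 cell library. In the library of 153 reads it was 10.5% (95% Wilson interval 6.54 to 16.3%). By method, PC3 EVs averaged 2.61% with ATPS, 3.03% with UC and 3.98% with exoRNeasy, and MDA-MB-231 EVs averaged 4.18%, 5.49% and 6.78% in the same order. The hairpin names left out by the rule took 12.9 to 59.3% of the miRNA TPM, and every value here is a share of the same total. Within the members the reads were concentrated, since the 10 highest members of a library held 58.9 to 83.4% of member TPM in the 15 deeper libraries.

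**Figure D1:**
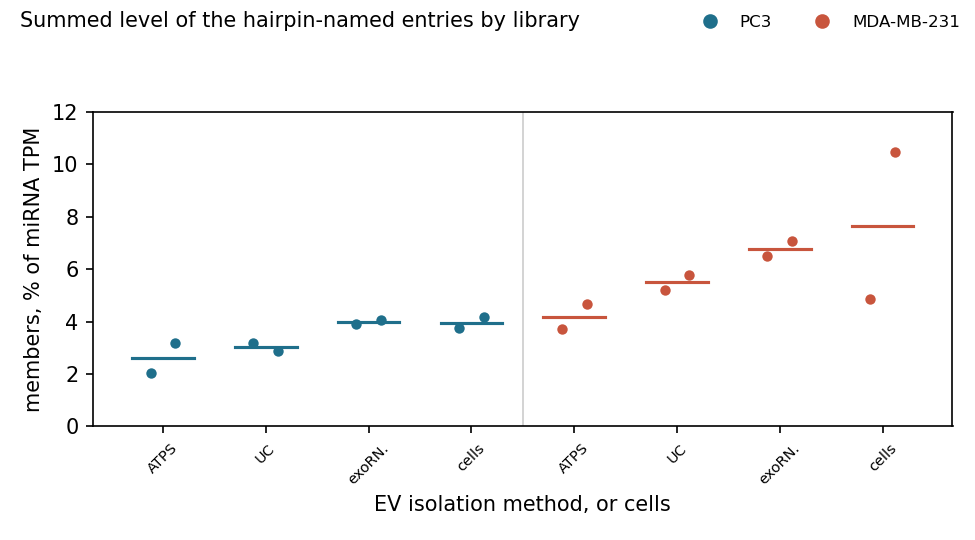
Share of miRNA TPM, in percent, held by the 129 members in each library (points) with group means (bars), PC3 groups left of MDA-MB-231 groups. The 6 PC3 EV libraries lie between 2.05 and 4.07% and the 6 MDA-MB-231 EV libraries between 3.71 and 7.06%.

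By the mean over the 8 group means, the 10 highest members were mir-181b-1 (6785 TPM), mir-30a (5008 TPM), mir-100 (3714 TPM), mir-30d (2719 TPM), mir-182 (2242 TPM), mir-181b-2 (1984 TPM), mir-3607 (1535 TPM), mir-27a (1501 TPM), mir-181a-1 (1124 TPM) and mir-181a-2 (1116 TPM). The mean of mir-181b-2 rests largely on 4 reads in the library of 153 reads. Without that library it was 544 TPM, in place 16 of the order, and mir-500b (1002 TPM) took the tenth place. The leading member depended on the line. It was mir-100, mir-182 or mir-27a in the PC3 libraries, and mir-181b-1, mir-30a, mir-30d or mir-181b-2 in the MDA-MB-231 libraries. mir-181b-2 led only in the library of 153 reads, with 4 reads. mir-100 belongs to a family known for targets in the mTOR pathway. Over the 16 libraries mir-181b-1 ran from 370 to 27913 TPM, mir-30a from 0 to 17154 TPM and mir-100 from 505 to 13072 TPM, and the ranges of all neighbours in this order overlapped.

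PC3 EVs were set against MDA-MB-231 EVs first, over the 3 isolation methods, with limma on log2(TPM + 1). Of the 129 members, 12 were lower in PC3 EVs and 3 were higher, against backgrounds of 6.01% lower and 1.24% higher over all 566 entries tested. Of these, 5 of the 12 and 1 of the 3 reached 4 libraries only through the EVs in which they were high. The rule itself thus favoured their difference, which is no result, and they are given by their reads alone. The other 7 lower and 2 higher members passed the rule without those EVs. Shares of calls over all entries were taken for the main limma fit only. Counts from other settings or tools, here and below, thus have no background to be read against. Without the library of 153 reads, 15 were lower and 6 higher. The count of higher members was 6 or 7 without a MDA-MB-231 cell library and 0 or 1 without any other library, and that of lower members was 6 without PC3 ATPS 1 and 7 without PC3 UC 2. Rescaled to the mature-named entries, 0 members were higher and 14 lower, and after quantile normalization 6 were higher and 10 lower. The median log2 difference was -0.86 over the members and -0.53 over all entries, a median that was -1.07 after the rescaling and -0.08 after quantile normalization. Among the 12, all 4 members of the miR-181 family, known from lymphocyte development and signalling, were lower in PC3 EVs, as was mir-30a. This family was grouped after its values were seen. Fitted differences of members at 0 in all libraries of a group depend on the pseudocount of 1 TPM, so a fold from pooled reads is given beside them.

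mir-181b-1 had 632 TPM in the lowest, 1756 TPM in the median and 4340 TPM in the highest of the PC3 EV libraries, against 4625, 8522 and 27913 TPM in MDA-MB-231 EVs. All PC3 EV libraries thus lay below all MDA-MB-231 EV libraries, with 139 against 1259 reads and a pooled level 5.60-fold lower in PC3 EVs (3.64-fold without MDA-MB-231 UC 2). The log2 difference was -2.50 (SE 0.58, limma adjusted p = 0.0202). The call was lost without any 1 of 6 libraries (PC3 ATPS 1, UC 1 and UC 2, MDA-MB-231 ATPS 2, UC 2 and exoRNeasy 1), with an adjusted p of at most 0.064. mir-181b-2 had no read in the 6 PC3 EV libraries, against 0, 320 and 687 TPM as lowest, median and highest of the MDA-MB-231 EV libraries. With 0 against 28 reads it was at least 5.77-fold lower in PC3 EVs, or at least 3.46-fold without MDA-MB-231 UC 1 (log2 difference -7.04, SE 1.53, adjusted p = 0.0139). This call held without each library in turn, although DESeq2 did not make it (adjusted p = 0.12).

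The copies mir-181a-1 and mir-181a-2 moved with them. mir-181a-1 had 0, 0 and 399 TPM as lowest, median and highest in PC3 EVs, against 1236, 2736 and 4044 TPM in MDA-MB-231 EVs, with no overlap. Its pooled level was 30.5-fold lower in PC3 EVs, and 81.8-fold without PC3 UC 1 (4 against 197 reads, log2 difference -8.56, SE 2.02, adjusted p = 0.0212). PC3 UC 1 held 3 of the 4 PC3 EV reads, so the larger fold rests on very few reads. mir-181a-2, which may hold the same reads, was 17.1-fold lower (7 against 194 reads, log2 difference -7.24, SE 1.81, adjusted p = 0.0315). The mir-181a-1 call was lost without PC3 ATPS 1, ATPS 2, UC 2 or exoRNeasy 1 or MDA-MB-231 ATPS 1, ATPS 2, UC 1 or UC 2, with an adjusted p of at most 0.085. That of mir-181a-2 was lost without 11 libraries (adjusted p at most 0.0911) and held without PC3 exoRNeasy 2 and without each cell library.

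mir-30a, whose mature strand belongs to a family known for roles in epithelial identity, was the called member of this comparison whose call held in every alternative. It had 0, 143 and 1196 TPM as lowest, median and highest in PC3 EVs, against 4902, 6642 and 17154 TPM in MDA-MB-231 EVs. The groups did not overlap, and the pooled level was 52.7-fold lower in PC3 EVs (6 against 511 reads), and 99.4-fold without PC3 exoRNeasy 2. That library held 3 of the 6 PC3 EV reads. The log2 difference was -7.62 (SE 1.34, adjusted p = 0.0027), and the call held in 25 of 25 alternatives with an adjusted p of at most 0.024. The mature strand miR-30a-5p had 411 to 7177 TPM in PC3 EVs and 42131 to 162967 TPM in MDA-MB-231 EVs, again without overlap. Of the 6 miR-30 members, mir-30a was the only one called in this comparison by limma.

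Further members were close to absent from PC3 EVs. mir-4326 had 1 read in PC3 EVs, against 206, 576 and 1023 TPM as lowest, median and highest in MDA-MB-231 EVs (53 reads, pooled level 32.8-fold lower, log2 difference -7.75, SE 1.55, adjusted p = 0.00745). The value of PC3 exoRNeasy 1 (316 TPM) lay above 1 MDA-MB-231 EV library, and without it the level was at least 10.2-fold lower in PC3 EVs. This call held without each library in turn, while DESeq2 did not make it (adjusted p = 0.0745). mir-93, named after its values were seen, had 2 against 10 reads. The 5 members that passed the rule only through MDA-MB-231 EVs were mir-3190, mir-19a, mir-612, mir-148a and mir-548al. mir-3190 had no read in PC3 EVs, against 0, 734 and 3532 TPM as lowest, median and highest in MDA-MB-231 EVs (34 reads). mir-19a, of the miR-17~92 cluster that is known to promote tumour growth, also had no read in PC3 EVs, against 0, 585 and 3532 TPM in MDA-MB-231 EVs (23 reads). For both the groups touched at 0, since MDA-MB-231 UC 2 held no read of either. mir-612, mir-148a and mir-548al had 0 reads in PC3 EVs against 13, 10 and 5 in MDA-MB-231 EVs, the last pair again named after values were seen.

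The 3 members higher in PC3 EVs were mir-183, mir-500b and mir-6723. mir-183, of the cluster with mir-182 that is known from sensory organs, had 949, 1922 and 3252 TPM as lowest, median and highest in PC3 EVs, against 0, 156 and 206 TPM in MDA-MB-231 EVs. mir-500b had 597, 1654 and 4428 TPM in PC3 EVs, against 0, 230 and 618 TPM in MDA-MB-231 EVs. mir-183 did not overlap between the lines and was 14.4-fold higher in PC3 EVs by pooled reads (89 against 10), and mir-500b overlapped only between its lowest PC3 and highest MDA-MB-231 EV library and was 4.85-fold higher (66 against 22 reads, 7.77-fold without MDA-MB-231 UC 1). The log2 difference was 5.91 for mir-183 (SE 1.62, adjusted p = 0.0425) and 5.03 for mir-500b (SE 1.35, adjusted p = 0.0422). The limma call of mir-183 held only without MDA-MB-231 ATPS 2, exoRNeasy 1 or either MDA-MB-231 cell library, and that of mir-500b only without either MDA-MB-231 cell library, with an adjusted p of at most 0.104 otherwise. On the recovered reads edgeR called mir-183 and mir-500b with adjusted p of 8.54e-07 and 0.000123, and DESeq2 with 1.55e-08 and 3.45e-06. mir-6723, a member only through PC3 EVs, had 7 reads in PC3 EVs and 1 in MDA-MB-231 EVs.

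mir-182 and mir-100 did not overlap or hardly overlapped between the lines, but were not called by limma. mir-182 had 2586, 3827 and 6380 TPM as lowest, median and highest in PC3 EVs, against 809, 1380 and 1637 TPM in MDA-MB-231 EVs (159 against 93 reads, log2 difference 1.64, SE 1.17, adjusted p = 0.464). edgeR and DESeq2 gave it adjusted p of 0.0102 and 5.65e-09, and without the library of 153 reads limma gave 0.000992. Its mature strand miR-182-5p held 475568 to 562229 TPM in the 6 PC3 EV libraries. mir-100 had 1898, 2896 and 5543 TPM in PC3 EVs, against 505, 1119 and 1966 TPM in MDA-MB-231 EVs (log2 difference 1.55, SE 0.59, adjusted p = 0.141). limma gave it an adjusted p of 0.0112 without the library of 153 reads, and DESeq2 gave 2.59e-05.

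**Figure D2:**
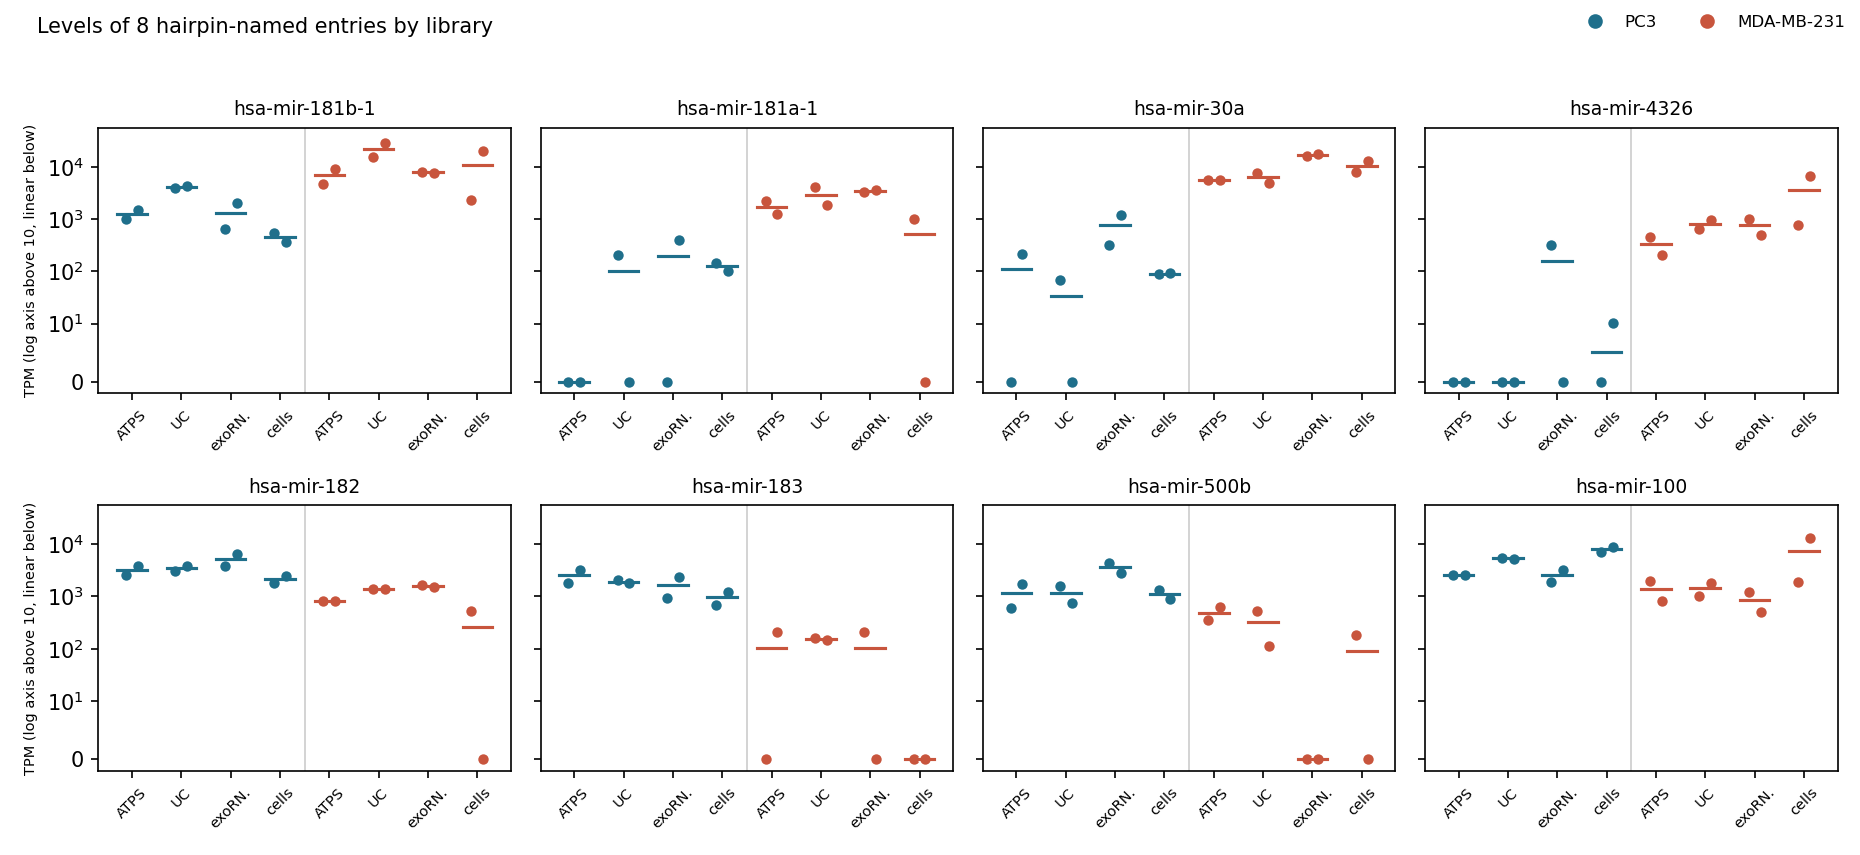
TPM of 8 members in each library (points) with group means (bars), on an axis that is logarithmic above 10 TPM and linear below, PC3 groups left of MDA-MB-231 groups. mir-30a reaches at most 1196 TPM in PC3 EVs and at least 4902 TPM in MDA-MB-231 EVs, while mir-183 reaches at least 949 TPM in PC3 EVs and at most 206 TPM in MDA-MB-231 EVs.

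In the donor cells, 1 member was lower in PC3 than in MDA-MB-231 and none was higher, against backgrounds of 1.06% lower and 3.18% higher over all entries. At an unadjusted p under 0.05, limma had 14 higher (10.9% of the members) and 3 lower (2.33%), against 12.5% higher and 1.41% lower over all entries, while edgeR called 7 higher and 4 lower and DESeq2 called 4 higher and 2 lower. Both called mir-100, mir-182, mir-183 and mir-500b higher and mir-30a and mir-4326 lower. Without the library of 153 reads limma called 1 higher and 1 lower, and without the other MDA-MB-231 cell library 8 higher and 2 lower. The called member was mir-181b-1, with 552 and 370 TPM in PC3 cells, against 2344 and 19608 TPM in MDA-MB-231 cells (55 against 107 reads, log2 difference -3.90, SE 1.01, adjusted p = 0.0435). The higher MDA-MB-231 value rests on 3 reads. Without that library the log2 difference was -2.37 with an adjusted p of 0.130, and the call held only without PC3 exoRNeasy 1 or 2, MDA-MB-231 ATPS 1 or MDA-MB-231 cells 1. edgeR and DESeq2 did not call it (adjusted p = 0.146 and 0.0938).

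Some members that differed between the EVs of the lines also stood apart between the cells by pooled reads, although limma did not call them there. mir-30a had 87.2 and 92.4 TPM in PC3 cells, against 7821 and 13072 TPM in MDA-MB-231 cells (12 against 349 reads, pooled level 86.1-fold lower in PC3 cells, and 144-fold without MDA-MB-231 cells 1). The 144-fold value rests on 2 MDA-MB-231 cell reads, in the library of 153 reads. limma gave mir-30a a log2 difference of -6.80 (SE 2.32, adjusted p = 0.159), while edgeR gave an adjusted p of 1.01e-07 and DESeq2 1.1e-10. mir-183 had 697 and 1211 TPM in PC3 cells, against no read in MDA-MB-231 cells (142 against 0 reads, at least 15.99-fold higher in PC3 cells and at least 10.3-fold without PC3 cells 2, log2 difference 9.85, SE 2.80, adjusted p = 0.0742). edgeR called it with an adjusted p of 0.000108 and DESeq2 with 0.000255. mir-182 had 1801 and 2474 TPM in PC3 cells, against 518 and 0 TPM in MDA-MB-231 cells (log2 difference 6.53, SE 2.02, adjusted p = 0.103). The difference of mir-182 was 2.02, with an adjusted p of 0.0237, without the library of 153 reads.

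EVs were then set against the cells that released them. In PC3, 6 members were lower in EVs and none was higher, against backgrounds of 8.13% lower and 0.707% higher over all entries. Of the 6, 3 reached 4 libraries only through PC3 cells and are given by their reads alone. Without the library of 153 reads, 12 were lower and 1 higher. The count of lower members was 0 without either PC3 cell library, 2 without either PC3 ATPS library, 3 without PC3 exoRNeasy 2 and 12 without either MDA-MB-231 cell library. limma had 2 higher members (1.55%) at an unadjusted p under 0.05, against 2.30% over all entries, edgeR called 3 higher and 15 lower, and DESeq2 called 7 higher and 1 lower. The 6 members were mir-7-2, mir-7-3, mir-181b-2, mir-193a, mir-330 and mir-454, of which the last pair was named after its values were seen. DESeq2 called mir-181b-1, the highest member, higher in the EVs of both lines, and limma and edgeR did not. By pooled reads it was 7.50-fold higher in PC3 EVs (139 against 55 reads, limma log2 difference 1.98, adjusted p = 0.176). PC3 EVs (632 to 4340 TPM) did not overlap PC3 cells (370 to 552 TPM). In MDA-MB-231 it was 7.29-fold higher in EVs with overlap (1259 against 107 reads, 0.577, adjusted p = 0.813).

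The miR-7 hairpins give miR-7-5p, known for repressing growth factor signalling and for its abundance in endocrine and neural cells. mir-7-2 had 137 TPM in PC3 UC EV library 1 and no read in the other PC3 EV libraries, against 872 and 554 TPM in PC3 cells (2 against 84 reads, pooled level 14.2-fold lower in EVs, at least 6.33-fold without that library). The log2 difference was -8.26 (SE 1.99, adjusted p = 0.0195), and the call was lost without either PC3 cell library (adjusted p at most 0.324). mir-7-3, which may share these reads, was 26.3-fold lower, or at least 5.88-fold without PC3 UC 1 (1 against 78 reads, log2 difference -8.34, SE 2.27, adjusted p = 0.0337), and lost its call without PC3 ATPS 1, ATPS 2, UC 2, exoRNeasy 1, exoRNeasy 2, cells 1 or cells 2 (adjusted p at most 0.363). The third copy, mir-7-1, had 0 to 633 TPM in PC3 EVs against 1191 and 821 TPM in PC3 cells and was not called by limma. The mature strand miR-7-5p, which all 3 hairpins give, had 616 to 2791 TPM in PC3 EVs and 4823 and 4610 TPM in PC3 cells, so hairpin and mature names were both lower in PC3 EVs in every library.

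mir-181b-2 had no read in the 6 PC3 EV libraries, against 262 and 298 TPM in PC3 cells (38 reads, at least 4.27-fold lower in EVs, log2 difference -8.13, SE 2.17, adjusted p = 0.0329). It lost its call without PC3 ATPS 1, ATPS 2, UC 2, exoRNeasy 2, cells 1 or cells 2, with an adjusted p of at most 0.324. edgeR also called mir-7-2, mir-7-3 and mir-181b-2 lower, and DESeq2 did not (adjusted p 0.712, 0.522 and 0.782). The 3 members that passed the rule only through PC3 cells, mir-193a, mir-330 and mir-454, had no read in PC3 EVs against 39, 15 and 9 reads in PC3 cells.

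mir-3607, 1 of the 10 highest members, was low in the EVs of both lines. It had 68.4, 258 and 797 TPM as lowest, median and highest in PC3 EVs, against 6333 and 6591 TPM in PC3 cells. The groups did not overlap, and 9 against 860 reads gave a pooled level 32.2-fold lower in EVs. limma did not call it (log2 difference -4.79, SE 1.91, adjusted p = 0.158), whereas edgeR gave -5.36 with an adjusted p of 8.48e-15 and DESeq2 -3.73 with 0.00143. In MDA-MB-231 it had 0, 224 and 505 TPM as lowest, median and highest in EVs, against 1555 and 6536 TPM in cells (15 against 70 reads, 7.53-fold lower in EVs, and 31.3-fold without MDA-MB-231 cells 1). The 31.3-fold value rests on 1 cell read, in the library of 153 reads. For MDA-MB-231 edgeR called mir-3607 (adjusted p = 0.00501) and limma and DESeq2 did not (0.256 and 0.192).

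In MDA-MB-231, 5 members were higher in EVs than in cells and none was lower, against backgrounds of 2.65% higher and 1.24% lower over all entries. Of the 5, 3 reached 4 libraries only through MDA-MB-231 EVs (mir-3190, mir-19a and mir-612) and are given by their reads alone. limma had 5 lower members (3.88%) at an unadjusted p under 0.05, against 2.83% over all entries, and edgeR called 4 higher and 9 lower and DESeq2 4 higher and 1 lower. Without the library of 153 reads, which is 1 of the 2 cell libraries here, 3 were higher and 2 lower. The 5 members were mir-27a, mir-3190, mir-19a, mir-3652 and mir-612. The count was 13 without MDA-MB-231 cells 1, 3 without PC3 ATPS 1, and 1 without either PC3 cell library or either MDA-MB-231 exoRNeasy library. After quantile normalization 4 were higher and 1 lower.

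mir-27a, of the cluster with mir-23a and mir-24-2 and known for roles in lipid metabolism, had 74.8, 642 and 6055 TPM as lowest, median and highest in MDA-MB-231 EVs, against no read in either MDA-MB-231 cell library. With 50 against 0 reads it was at least 10.3-fold higher in EVs, at least 6.65-fold without MDA-MB-231 exoRNeasy 1 and at least 15.8-fold without MDA-MB-231 UC 2 (log2 difference 9.41, SE 1.84, adjusted p = 0.0118). The call held in 25 of 25 alternatives, and at an adjusted p of 0.0212 without the library of 153 reads. The exoRNeasy libraries 1 and 2 held 20 and 12 of the 50 reads. In PC3, mir-27a was 12.9-fold higher in EVs than in cells by pooled reads (39 against 9). There the exoRNeasy libraries 1 and 2 held 23 and 9 of the 39 reads. PC3 EVs (0 to 7274 TPM) overlapped PC3 cells (58.1 to 71.9 TPM). DESeq2 called it, and limma (log2 difference 2.19, SE 1.84, adjusted p = 0.56) and edgeR did not. Without MDA-MB-231 cells 1 the remaining 153 reads set no bound above 1 for the called members of MDA-MB-231. mir-3652 was at least 3.93-fold higher (19 against 0 reads, adjusted p = 0.0475), a call that held only without PC3 exoRNeasy 1 or 2 among the libraries left out (otherwise at most 0.117). With the replicate block it was lost (adjusted p = 0.052), edgeR gave 0.0311 and DESeq2 gave no adjusted p. mir-3190, mir-19a and mir-612 had 34, 23 and 13 reads in MDA-MB-231 EVs and no read in MDA-MB-231 cells. Other tools did not call all of them, since edgeR called only mir-3190 of these and DESeq2 none. DESeq2 gave an adjusted p to only 30 members in this comparison.

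For mir-19a the hairpin name and the mature name did not follow each other. miR-19a-3p had 299 to 1514 TPM in MDA-MB-231 EVs and 1307 and 0 TPM in MDA-MB-231 cells, and 552 and 503 TPM in PC3 cells, where the hairpin name had 0 and 10.3 TPM. miR-3190-3p was above 0 in 1 library, MDA-MB-231 exoRNeasy 1, with 409 TPM. The miR-7 hairpins were lower in MDA-MB-231 EVs by pooled reads but not called by limma: mir-7-2 had 0, 99.6 and 578 TPM as lowest, median and highest in EVs, against 1983 and 6536 TPM in cells (log2 difference -6.90, SE 1.99, adjusted p = 0.0851). edgeR called it with an adjusted p of 6.89e-05.

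**Figure D3:**
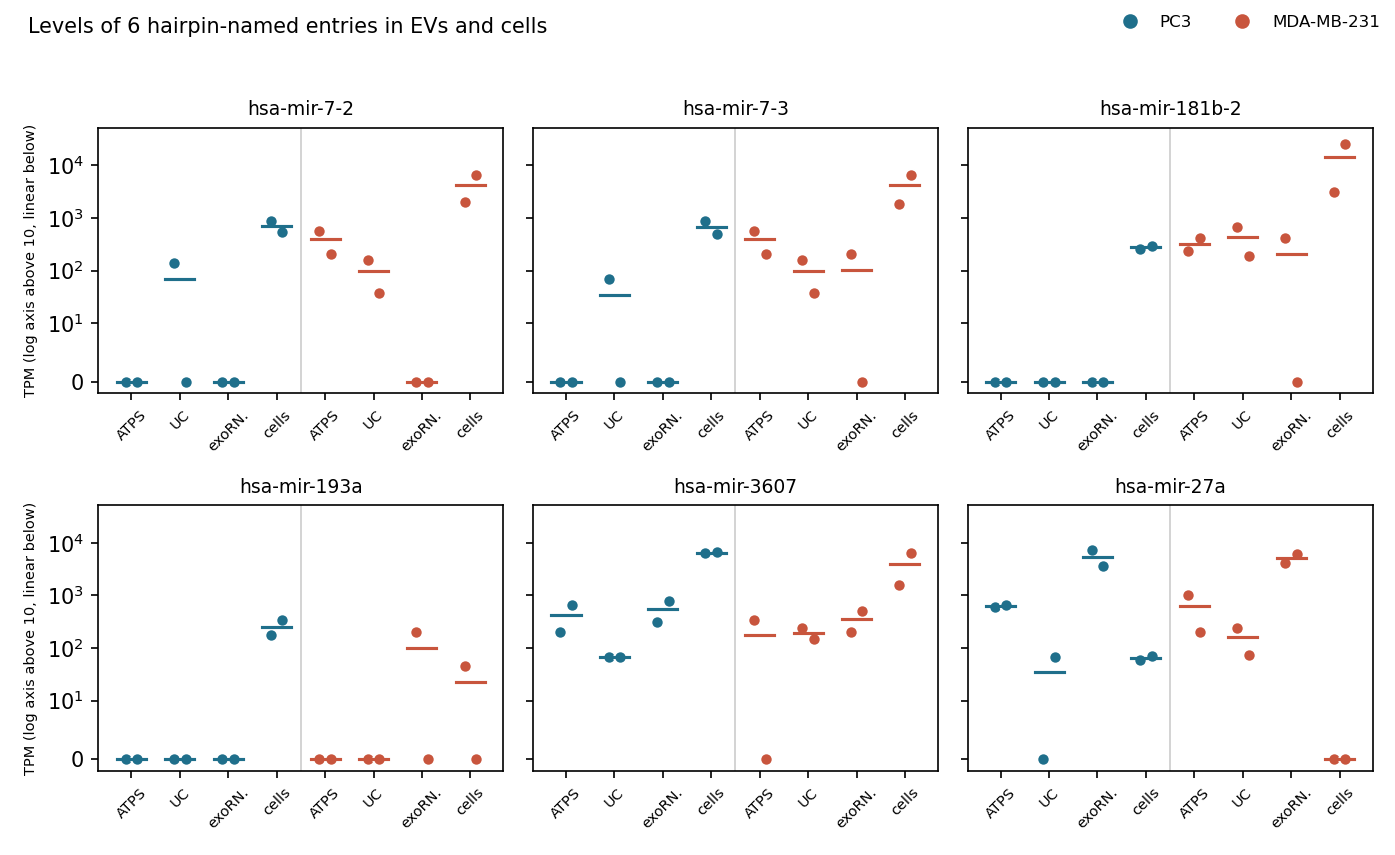
TPM of 6 members in each library (points) with group means (bars), on an axis that is logarithmic above 10 TPM and linear below, EV groups left of cells within each line. mir-3607 has at most 797 TPM in PC3 EVs and at least 6333 TPM in PC3 cells, and mir-27a is above 0 in all 6 MDA-MB-231 EV libraries and at 0 in both MDA-MB-231 cell libraries.

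Whether the difference between EVs and cells itself differed between the lines was tested as an interaction, PC3 minus MDA-MB-231. limma called 0 of 129 members in either direction, against backgrounds of 0.177% lower and 0% higher. At an unadjusted p under 0.05 it had 18 lower (13.95% of the members) and 1 higher (0.775%), against 11.8% lower and 0.530% higher over all entries, and edgeR and DESeq2 called 0. The median log2 difference was -3.35 over the members and -2.60 over all entries. Without MDA-MB-231 cells 1, which leaves the library of 153 reads as that group, 15 members were called lower and 1 higher, and without the library of 153 reads 0 were. Without PC3 UC 1, PC3 UC 2 or MDA-MB-231 UC 2, 2 members were called lower, and without MDA-MB-231 ATPS 1, ATPS 2 or UC 1, 1 was.

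The isolation methods were compared over both lines. Between ATPS EVs and UC EVs limma called 0 members, against a background of 0% in both directions, with 11 lower (8.53%) and 1 higher (0.775%) at an unadjusted p under 0.05, against 8.13% lower and 0.707% higher over all entries. edgeR called 1 lower, mir-181b-1, and DESeq2 called 1 higher, mir-27a. mir-181b-1 had 995 and 1518 TPM in PC3 ATPS EVs against 3901 and 4340 TPM in PC3 UC EVs, and 4625 and 9063 TPM in MDA-MB-231 ATPS EVs against 15164 and 27913 TPM in MDA-MB-231 UC EVs. Within each line both ATPS libraries lay below both UC libraries, but limma did not call the difference (log2 difference -1.71, SE 0.71, adjusted p = 0.429), nor did DESeq2 (adjusted p = 1.00), and edgeR gave 0.0228. The mature miR-181b-5p had 398 and 434 TPM in PC3 ATPS EVs against 1095 and 965 TPM in PC3 UC EVs.

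Between ATPS EVs and exoRNeasy EVs 1 member was lower and none higher, against backgrounds of 1.77% lower and 1.06% higher. At an unadjusted p under 0.05 limma had 9 higher (6.98%, against 5.48% over all entries). edgeR and DESeq2 called 0 higher and 2 lower each, but DESeq2 gave an adjusted p to only 6 members. Between UC EVs and exoRNeasy EVs 3 members were lower and 11 higher, against backgrounds of 2.65% lower and 5.12% higher. Among the 11 are the 4 copies of mir-1244, whose identical values are not separate observations. The 1 member lower in ATPS EVs and 2 of the 3 lower in UC EVs reached 4 libraries only through exoRNeasy EVs, and 7 of the 11 only through UC EVs, and these are given by their reads alone. Without the library of 153 reads, limma called 2 lower and 5 higher for ATPS against exoRNeasy, and 3 lower and 16 higher for UC against exoRNeasy. The count of 3 was 5 without PC3 exoRNeasy 2 and 1 without PC3 cells 1 or 2, MDA-MB-231 UC 2 or MDA-MB-231 exoRNeasy 1 or 2. Members lower in the first of each pair, and thus higher with the kit, were mir-561 in both comparisons and mir-27a and mir-3199-1 in that of UC.

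mir-561 had no read in the 4 ATPS and the 4 UC EV libraries, against 1581 and 2791 TPM in PC3 exoRNeasy EVs and 205 and 2018 TPM in MDA-MB-231 exoRNeasy EVs. It had 0 against 17 reads in both comparisons. As it passed the rule only through the exoRNeasy EVs, no fold or test is given. Its mature strand miR-561-5p had 633 and 1196 TPM in PC3 exoRNeasy EVs, 68.4 TPM in PC3 UC EV library 1 and 0 in all other libraries.

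By group means, mir-27a was lowest with UC among the 3 methods in both lines. It had 0 and 68.9 TPM in PC3 UC EVs against 7274 and 3589 TPM in PC3 exoRNeasy EVs, and 243 and 74.8 TPM in MDA-MB-231 UC EVs against 4093 and 6055 TPM in MDA-MB-231 exoRNeasy EVs. The groups did not overlap, and the pooled level was 45.7-fold lower in UC EVs, and 95.03-fold without MDA-MB-231 UC 1 (9 against 64 reads, log2 difference -7.23, SE 1.59, adjusted p = 0.0207). MDA-MB-231 UC 1 held 6 of the 9 UC reads. The call was lost without PC3 cells 1 or 2, MDA-MB-231 UC 2 or MDA-MB-231 exoRNeasy 1 or 2 (adjusted p at most 0.0882), while edgeR gave 1.57e-09 and DESeq2 4.87e-10. With ATPS, mir-27a had 597 and 651 TPM in PC3 EVs and 1041 and 206 TPM in MDA-MB-231 EVs, which lay below exoRNeasy in every library (log2 difference -3.23, SE 1.59, limma adjusted p = 0.477, edgeR 0.00812, DESeq2 0.000313). Against UC the ATPS difference was 3.997 (SE 1.59, limma adjusted p = 0.408, edgeR 0.283, DESeq2 0.0378).

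The mature strands of this hairpin followed different orders of methods in PC3. miR-27a-5p had 26656 and 24935 TPM in PC3 ATPS EVs, 2874 and 3307 TPM in PC3 UC EVs and 72423 and 82935 TPM in PC3 exoRNeasy EVs. In MDA-MB-231 it had 4625 and 7003 TPM in ATPS EVs, 687 and 449 TPM in UC EVs and 14122 and 17659 TPM in exoRNeasy EVs, in the same order of methods as the hairpin name. In cells it had 29.1 and 61.6 TPM in PC3 and 22.5 and 0 TPM in MDA-MB-231. miR-27a-3p, in contrast, had 6565 and 8023 TPM in PC3 ATPS EVs, 7391 and 6752 TPM in PC3 UC EVs and 1265 and 3190 TPM in PC3 exoRNeasy EVs.

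**Figure D4:**
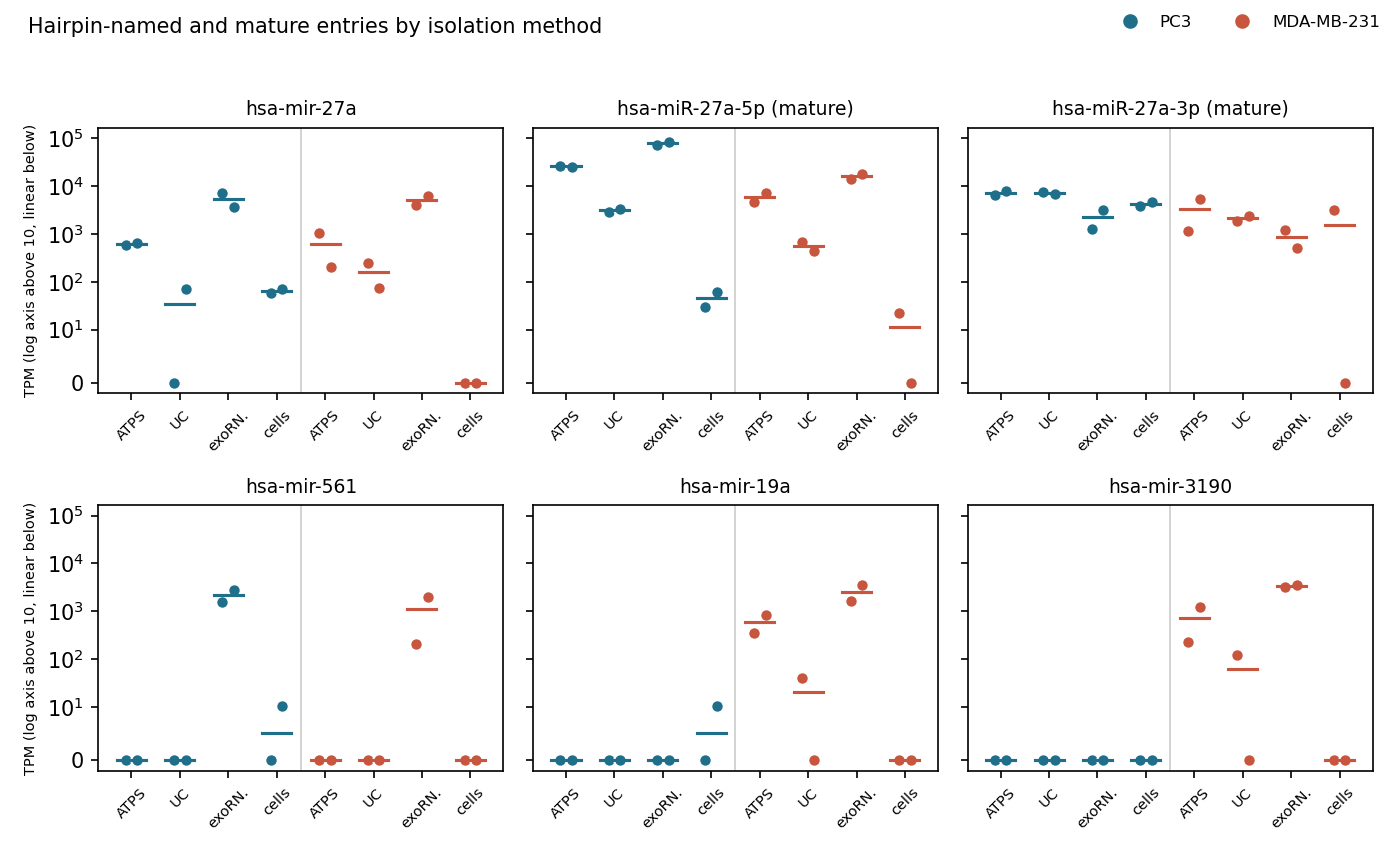
TPM in each library (points) with group means (bars) for mir-27a, its mature strands miR-27a-5p and miR-27a-3p, and the members mir-561, mir-19a and mir-3190, on an axis that is logarithmic above 10 TPM and linear below. mir-561 is above 0 in the 4 exoRNeasy EV libraries and at 0 in the 8 ATPS and UC EV libraries, and mir-27a has at least 3589 TPM in exoRNeasy EVs and at most 243 TPM in UC EVs.

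The 11 members that limma called higher in UC EVs were mir-3615, mir-378c, mir-103a-2, mir-103a-1, mir-378d-2, mir-30c-1, mir-1229 and the 4 copies of mir-1244. None had a read in the exoRNeasy EVs, and their pooled UC level was at or under the 239 TPM that 3 reads are worth over the exoRNeasy libraries, so no fold is given and the depth cannot show a difference. Only mir-3615, mir-378c and both copies of mir-103a were members without the UC EVs, and mir-3615 gave a log2 difference of 7.10 (adjusted p = 0.036). The count of 11 was 0 with a pseudocount of 100 TPM, without a filter, in DESeq2, and without PC3 cells 1 or 2, MDA-MB-231 UC 2 or MDA-MB-231 exoRNeasy 1 or 2. It was 1, 6, 4, 3 and 5 without PC3 UC 1, PC3 UC 2, PC3 exoRNeasy 1, PC3 exoRNeasy 2 and MDA-MB-231 UC 1, in this order, and after quantile normalization 3 members were higher and 4 lower. DESeq2 gave an adjusted p to only 40 members in this comparison, so its count of 0 is no negative result for the others. edgeR called 2 other members higher, mir-151a and mir-181b-1. mir-3199-1 had 0 reads in UC EVs against 3 in exoRNeasy EVs.

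The share of reads under the hairpin name was then set beside the mature names of the same hairpin, as a description chosen after values were seen and with no test. Of the 129 members, 116 had a mature-named entry, and 38 of these had more reads than their mature names over all libraries. For mir-181b-1, the hairpin name held 75.5% of hairpin and miR-181b-5p reads in PC3 EVs and 13.1% in PC3 cells, and 67.3% in MDA-MB-231 EVs and 10.2% in MDA-MB-231 cells. The 12 EV libraries ran from 22.2 to 81.8%, against 16.96 and 11.7% in PC3 cells and 9.96 and 42.9% in MDA-MB-231 cells, where the last value rests on 7 reads. By method the share was 56.1% with ATPS, 70.6% with UC and 48.8% with exoRNeasy. miR-181b-5p also comes from mir-181b-2, which had no read in PC3 EVs.

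The other members with many reads were not alike in this share. mir-181a-1 held 7.84% in PC3 EVs and 5.70% in PC3 cells, and 25.1% in MDA-MB-231 EVs and 5.40% in MDA-MB-231 cells. mir-30a held 8.22% in PC3 EVs, 10% in PC3 cells, 8.73% in MDA-MB-231 EVs and 9.43% in MDA-MB-231 cells, although its level differed between the lines. mir-140, in an intron of WWP2 and named here after its values were seen, held 64.4% in PC3 EVs, 55.6% in PC3 cells, 64.1% in MDA-MB-231 EVs and 72.2% in MDA-MB-231 cells. mir-100 held 39.1% in PC3 EVs and 45.9% in PC3 cells, against 10.2% in MDA-MB-231 EVs and 13.6% in MDA-MB-231 cells. mir-182 held 0.707% in PC3 EVs and 2.37% in PC3 cells, beside the dominant miR-182-5p. Among members with 10 or more reads in both materials, the hairpin share was higher in EVs for 28 of 57 in PC3 and 34 of 62 in MDA-MB-231.

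**Figure D5:**
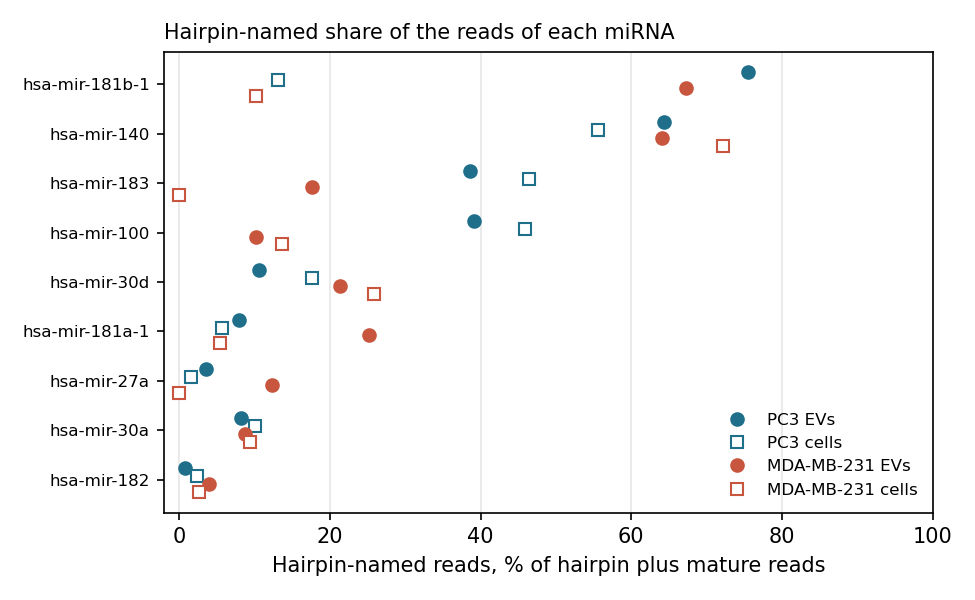
Percent of hairpin and mature reads that stand under the hairpin name, pooled over libraries, for 9 members in EVs and cells of each line. mir-181b-1 has 75.5% in PC3 EVs and 13.1% in PC3 cells, while mir-30a lies between 8.22 and 10% in all 4 materials.

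By family, the limma calls were few and spread over the comparisons. Calls of members that passed the rule only through the group where they were high are marked and are no result. Over all entries limma called 6.01% lower and 1.24% higher in PC3 EVs than in MDA-MB-231 EVs, and 1.06% lower in PC3 cells than in MDA-MB-231 cells. It called 8.13% lower in PC3 EVs than in PC3 cells and 2.65% higher in MDA-MB-231 EVs than in their cells. With UC against exoRNeasy it called 5.12% higher and 2.65% lower. The family counts were not tested against these shares. Of the 10 members of miR-17~92 and its paralogue clusters, mir-93 was lower in PC3 EVs than in MDA-MB-231 EVs. mir-19a was also called there and in MDA-MB-231 EVs against their cells, but it was a member only through MDA-MB-231 EVs. The miR-183 cluster had 2 members, of which limma called mir-183 once, while edgeR and DESeq2 called both higher in PC3 EVs than in MDA-MB-231 EVs and in PC3 cells than in MDA-MB-231 cells. Of the 6 members of the miR-23, miR-24 and miR-27 families, mir-27a was called in 2 comparisons. Of the 6 miR-30 members mir-30a was called once, and so was mir-30c-1, a member only through UC EVs. Both members of the miR-103 and miR-107 family were among the 11 called in UC EVs, for which the depth cannot show a difference. No limma call fell on the 4 members of the families of miR-100, miR-99 and miR-125, the 5 of miR-320 and miR-484, mir-98 of the let-7 family or the 2 members that overlap another small RNA, although edgeR and DESeq2 called mir-100 higher in PC3 cells than in MDA-MB-231 cells, DESeq2 called it higher in PC3 EVs than in MDA-MB-231 EVs, and edgeR called it lower in PC3 EVs than in PC3 cells. Of the 37 copies, 4 were lower in PC3 EVs than in MDA-MB-231 EVs, 1 lower in PC3 cells than in MDA-MB-231 cells, 3 lower in PC3 EVs than in PC3 cells and 7 among the 11 called in UC EVs. Those 7 include mir-30c-1 and the 4 copies of mir-1244, which hold identical values, and all of these were members only through UC EVs. No member belonged to the miR-200 family or to the 14q32 cluster.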

How the data were processed

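Small RNA-seq data of 16 libraries were used. Per the labels and the study's methods, libraries were made with NEBNext kits and sequenced on a NextSeq, reads were quality filtered (Q20 in windows of 4 bases), kept at 18 to 35 bases, aligned to hg38 with STAR and annotated with COMPSRA. For STAR and COMPSRA no version was found in these sources. The authors deposited values named TPM that are CPM of the RNA class (reads per 1e+06 reads of that class, without a length term), for miRNAs and for snoRNAs. The snoRNA values served to compare the MDA-MB-231 cell libraries and to look up the snoRNA that overlaps mir-3651. No result given here rests on them. In 15 libraries 100% of miRNA values were whole multiples of 1 read (within 0.1 read). The table of circular RNAs was not used, and 0 sample columns were left unassigned. Libraries labelled VC were read as UC, an inference.

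Log2(TPM + 1) was fitted with limma 3.58.1 (R 4.3.3, trend and robust) to 8 group means over 566 entries with at least 1 TPM in at least 2 libraries. Benjamini-Hochberg adjusted p-values run over these 566 entries per comparison, with a threshold of 0.05. All 129 members passed the filter. EV comparisons weight the 3 methods or both lines equally. edgeR 4.0.16 (quasi-likelihood, TMM) and DESeq2 1.42.0 on recovered whole reads, other pseudocounts, filters and scalings, a replicate block and leaving out each library were the alternatives. DESeq2 did not give every member an adjusted p. Those with one numbered 25 for PC3 EVs against MDA-MB-231 EVs and 52 for the cells of both lines. They numbered 127 for PC3 EVs against PC3 cells and 30 for MDA-MB-231 EVs against their cells. Against exoRNeasy they numbered 6 for ATPS and 40 for UC. A missing DESeq2 call of another member is thus no negative result. As independent cultures are not stated, p-values measure only how far these libraries spread, possibly for technical reasons. Pooled folds divide summed reads by summed depth, and a group at 0 was set to 3 reads over the group. The fit was tested on simulated reads for PC3 EVs against MDA-MB-231 EVs only, with the same dispersion set for every entry. The other comparisons were not simulated, and no result here rests on this test. Members and lists were chosen with earlier results of these data known. Named members were the 10 highest and, per comparison and direction, up to 6 called members with the largest change and a mean of at least 50 TPM. Exceptions are marked. A called member above 0 in fewer than 4 libraries outside its high group is given without a test. Hairpins and mature strands were matched by name to RefSeq (GRCh38.p14).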

Additional observations from a re-analysis of the deposited data

How the results depend on the processing

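Over all alternatives no called member picked by the naming rule changed sign, while calls and counts moved widely. The signs of the other called members were not followed over the alternatives. Counts are given as higher and lower members. With a pseudocount of 100 TPM, 6 members were higher in PC3 EVs than in MDA-MB-231 EVs, 3 higher and 4 lower in PC3 cells than in MDA-MB-231 cells, 1 higher in PC3 EVs than in PC3 cells, 5 lower in MDA-MB-231 EVs than in MDA-MB-231 cells, 2 lower with ATPS than with exoRNeasy, and 0 higher and 8 lower with UC than with exoRNeasy. With 10 TPM, PC3 cells had 1 higher and 3 lower, MDA-MB-231 EVs 2 lower than their cells, ATPS 2 lower than exoRNeasy, and UC 3 higher than exoRNeasy. Without a filter, 0 were higher in PC3 EVs than in MDA-MB-231 EVs, 0 lower in PC3 cells, 0 lower in PC3 EVs than in PC3 cells, 1 higher in MDA-MB-231 EVs than in their cells, and 0 higher and 1 lower with UC than with exoRNeasy. With the stricter filter (above 0 in at least 4 libraries) 2 were lower in PC3 EVs than in PC3 cells.

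Rescaled to mature-named entries, 0 were higher in PC3 EVs than in MDA-MB-231 EVs and 0 lower in PC3 cells than in MDA-MB-231 cells, and the summed level was 4.16% in PC3 EVs, 11.5% in MDA-MB-231 EVs and 7.24% in PC3 cells. After quantile normalization, 6 were higher in PC3 EVs than in MDA-MB-231 EVs, 1 lower in MDA-MB-231 EVs than in their cells, and 3 higher with UC than with exoRNeasy. edgeR called 7 higher and 4 lower in PC3 cells than in MDA-MB-231 cells, 3 higher and 15 lower in PC3 EVs than in PC3 cells, 9 lower in MDA-MB-231 EVs than in their cells, 1 lower with ATPS than with UC, 2 lower with ATPS than with exoRNeasy and 2 higher with UC than with exoRNeasy. DESeq2 called 5 higher and 4 lower in PC3 EVs than in MDA-MB-231 EVs, 4 higher and 2 lower in PC3 cells, 7 higher and 1 lower in PC3 EVs than in PC3 cells, 1 lower in MDA-MB-231 EVs than in their cells, 1 higher with ATPS than with UC, 2 lower with ATPS and 0 higher with UC than with exoRNeasy. The cause of these shifts was not tested. The DESeq2 counts cover only the members to which it gave an adjusted p, such as 6 for ATPS and 40 for UC against exoRNeasy.

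Same-numbered libraries did not deviate together (28 pairs of groups, r from -0.086 to 0.087, 0 over 0.1). Many entries hold few reads, whose counting error can hide a shared deviation, so this cannot decide whether the replicate numbers give a pairing. With the replicate block, 1 member was higher in PC3 EVs than in MDA-MB-231 EVs, 0 lower in PC3 cells than in MDA-MB-231 cells and 2 higher in MDA-MB-231 EVs than in their cells.

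Leaving out 1 library at a time gave 0 to 7 higher and 6 to 17 lower in PC3 EVs than in MDA-MB-231 EVs, 0 to 8 higher and 0 to 2 lower in PC3 cells than in MDA-MB-231 cells, 0 to 1 higher and 0 to 12 lower in PC3 EVs than in PC3 cells, and 1 to 13 higher and 0 to 2 lower in MDA-MB-231 EVs than in their cells. It gave 0 to 1 higher and 0 to 15 lower for the interaction, 0 to 1 lower with ATPS than with UC, 0 to 5 higher and 1 to 2 lower with ATPS than with exoRNeasy, and 0 to 16 higher and 1 to 5 lower with UC than with exoRNeasy. The summed level ran from 3.03 to 3.44% in PC3 EVs, 5.17 to 5.84% in MDA-MB-231 EVs, 3.74 to 4.18% in PC3 cells and 4.85 to 10.5% in MDA-MB-231 cells. Where a cell library is left out, the remaining one is assumed to vary like the other groups. Depth limits most members, since 3 reads are worth 614 to 1514 TPM in single exoRNeasy libraries of MDA-MB-231.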
